A study of Arabidopsis thaliana with 434 samples.

Results

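ANAC082 (locus AT5G09330) is 1 of 49 NAC transcription factor genes whose transcripts were counted together in Arabidopsis thaliana leaves. Its probe was picked by locus, so the account rests on 1 of 49 NAC probes, read in all 434 samples. The rule for the probe used no measured value, but members and lists were chosen with earlier results of these data known.

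The samples were leaves of wild type Columbia (Col) and of 49 lines with a T-DNA insertion in a NAC gene, all in the Columbia background, at 14, 18, 22 and 26 d of leaf age. There were 10 wild-type samples of 14 d and 8 of every later age, 4 per age of anac092, and 2 per age of each of the other 48 lines. Insertions came from the SALK, SAIL and GABI-KAT collections, and the sources used here name neither the allele of a given line nor the place of a probe relative to the insertion. Sample titles also hold a letter (A, B, C or D) and a number. In the main fit every line is set against wild type of its age, with a letter effect shared by wild type and anac092. Normalised counts are given beside those of wild type of the line's letter. Whether replicate samples were taken from different plants is not stated, and the p-values then measure only their spread, which may be technical.

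NAC proteins are plant transcription factors, several of which promote or delay leaf senescence, the ordered dismantling of an ageing leaf. ANAC082 mediates the developmental response to disturbed ribosome biogenesis, called ribosomal or nucleolar stress, and also carries the name VNI1, for an interaction with the xylem regulators of the VND family. ANAC017 (AT1G34190, also RAO2) is anchored in the endoplasmic reticulum membrane and, when mitochondria fail, activates nuclear genes such as that of the alternative oxidase AOX1a. The study singled out ANAC017, ANAC082 and ANAC090 (AT5G22380) as a trio, and measuring every NAC transcript in every NAC line addressed which NAC genes act on which.

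Values below are normalised counts, the raw count over the arithmetic mean of ACT2, ACT7, TUB2 and UBQ10 in that library, times the average of this mean over all libraries. Totals ran from 31613 to 687229 counts per sample with a median of 225519. ANAC082 itself was read with 87 to 3956 raw counts, median 939, so counting error alone was 3.26% at the median and 10.7% in the sample with the fewest. The mean of the negative control probes was 5.19 counts, under every ANAC082 count. The SD of log2 ANAC082 among samples of 1 genotype, letter and age was 0.18, the fifth smallest of the 47 genes tested, against 0.22 for ANAC017.

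Some labels went against their own target. In the line labelled anac082 the ANAC082 transcript was not lower than in wild type, and in the line labelled anac017 the ANAC017 transcript was higher, as described below. At 18 d the libraries labelled anac053 A1 and anac055 A1 held the other line's pattern: the first had 212 normalised counts of ANAC053 and 3.86 of ANAC055, the second 5.35 and 163, while wild type ran from 158 to 324 and from 57.7 to 272. Their ANAC082 values were 1088 and 987, and each 18 d estimate below was the same to 2 decimals without both libraries.

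In wild type, ANAC082 rose with leaf age when scaled to the reference genes, by 0.60 on the log2 scale from 14 to 26 d, but fell by 0.22 over the same span when scaled by TMM, which uses all the genes measured. With both it lay 0.52 below the typical NAC gene of the panel on the log2 scale, a distance that scaling can hardly change. The order of the ages with the references was 14, 18, 22 and 26 d, with the longest step between 18 and 22 d.

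At 14 d, wild-type ANAC082 was at 814, 806, 821 and 906 normalised counts in samples A1 to A4, 1010 and 812 in B1 and B2, 763 and 673 in C1 and C2, and 777 and 808 in D1 and D2 (819 ± 88.5, SD, n = 10). At 18 d the letters A to D gave 891 and 891, 656 and 824, 1044 and 888, and 690 and 944 (854 ± 128, SD, n = 8). The ages 14 and 18 d overlapped almost fully, with B1 as the highest sample at 14 d and the lowest at 18 d.

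At 22 d the same letters gave 1180 and 1246, 938 and 988, 1191 and 1080, and 913 and 997 normalised counts (1067 ± 126, SD, n = 8). At 26 d they gave 1413 and 1237, 1033 and 1566, 1029 and 1336, and 1049 and 1229 (1237 ± 196, SD, n = 8). Every sample of 26 d lay above every sample of 14 d, a separation that 44.7% of the 47 genes showed in that direction.

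**Figure D1:**
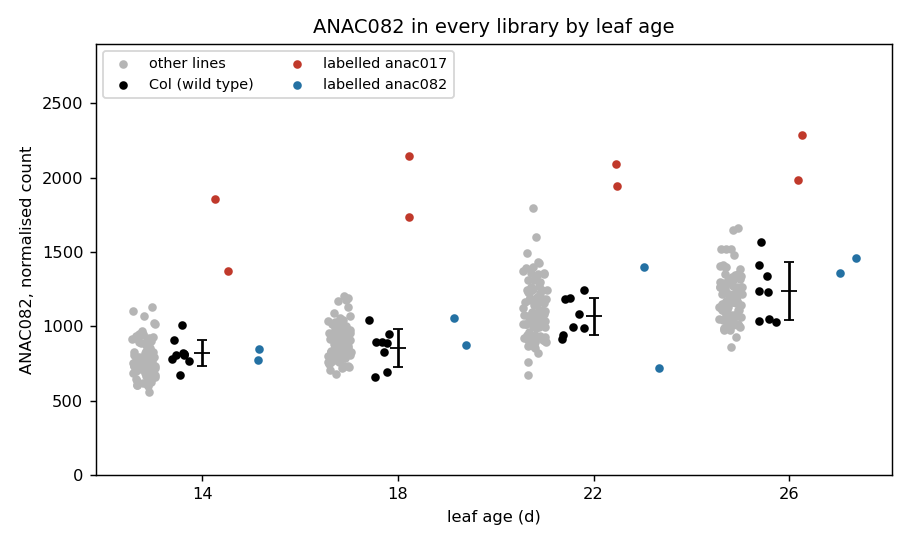
ANAC082 normalised count (y axis, scaled to the 4 reference genes) in every library at the 4 leaf ages (x axis, d). Grey points are the other lines, black points wild type with a bar for its mean ± SD, red points the line labelled anac017 and blue points the line labelled anac082. The 8 red points lie between 1373 and 2286, above every other library of their age; the upward drift of wild type from 819 to 1237 holds with this scaling and turns to a fall of 0.22 on the log2 scale with TMM.

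In the edgeR quasi-likelihood fit over all samples and genes, with Benjamini-Hochberg adjustment over the 47 genes, ANAC082 differed from 14 d by 0.06 on the log2 scale at 18 d (SE 0.09, adjusted p = 0.634), by 0.38 at 22 d (SE 0.09, adjusted p = 3.2e-05) and by 0.60 at 26 d (SE 0.09, adjusted p = 1.6e-10), which is 152% of the 14 d level. An adjusted p below 0.05 is called a change here. The neighbouring ages 14 and 18 d did not differ beyond their spread, 22 d was above 18 d by 0.32 (adjusted p = 0.0012), and 26 d above 22 d by 0.22, short of the threshold (adjusted p = 0.062). In the panel 25.5% of genes were called higher than at 14 d by 18 d, 78.7% by 22 d and 83.0% by 26 d, and 68.1% and 23.4% in the steps from 18 to 22 d and from 22 to 26 d, so most genes of the panel shared the calls of ANAC082 at 22 and 26 d.

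Set against the panel, ANAC082 stood below the typical gene in its change with age. The median change over all 47 genes was 0.14, 0.78 and 1.12 at 18, 22 and 26 d, and ANAC082 stood 27th, 35th and 34th from the top. TMM moved that median to 0.00, 0.20 and 0.30, and ANAC082 with it to -0.08, -0.19 (adjusted p = 0.025) and -0.22 (adjusted p = 0.0042). Scaling to the spiked-in positive controls gave -0.78 (adjusted p = 2.6e-05), -0.29 (adjusted p = 0.146) and 0.10 (adjusted p = 0.580). A change of scale shifts all genes of a library alike, so it can hardly alter the distance of ANAC082 from their median. At 26 d that distance was -0.52 with the references, -0.52 with TMM and -0.48 with the spike-ins. It lay between -0.57 and -0.47 over 30 settings, of which the scalings are no independent check. In these bulk samples, fewer cells of a type and less RNA per cell cannot be told apart.

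The letters gave the same direction from 14 to 26 d with the references, 0.66 in A, 0.49 in B, 0.71 in C and 0.52 in D. They parted at the earlier ages. At 22 d the differences from 14 d were 0.54, 0.09, 0.66 and 0.27, and at 18 d they were 0.09, -0.30, 0.43 and 0.03, so letter B alone had less ANAC082 at 18 d than at 14 d.

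The lines changed with age much as wild type did. With the references, the mean log2 level at 26 d exceeded that at 14 d in 49 of 49 lines, with every 26 d sample above every 14 d sample of the line, against 76.8% of all pairs of genotype and gene. The differences ran from 0.31 in anac072 to 0.97 in anac014 with a median of 0.60, while wild type had 0.59, the line labelled anac017 0.42 and the line labelled anac082 0.80. TMM turned the direction in 48 of these lines, leaving 1 of 49 positive with a median of -0.27, and with spike-in scaling 24 of 49 were positive. The change of the line effect from 14 to 26 d was called in 0 of 48 lines by edgeR, with 0 at an unadjusted p below 0.05, and in 0 by DESeq2. Of all pairs of line and gene 0.133% were called and 4.79% had such an unadjusted p.

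The line labelled anac017 held the highest ANAC082 of the whole series. Averaged over the 4 ages, ANAC082 was 0.91 above wild type on the log2 scale, or 188% of it, while ANAC017 in the same libraries was 1.38 above, or 260%. The direction of the ANAC082 difference held at all 4 ages under every scaling tried. The 14 d samples A1 and A2 had 1853 and 1373 normalised counts of ANAC082, and the 18 d samples had 1735 and 2143. The wild-type samples of letter A had a mean of 836 at 14 d (n = 4) and 891 at 18 d (n = 2). Both mutant samples thus lay above all wild-type samples at these ages, which reached 1010 and 1044 over all letters.

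At 22 d the line had 1943 and 2089 normalised counts of ANAC082 and at 26 d 2286 and 1982. Wild type of letter A had means of 1213 and 1325 (n = 2 each). The line and wild type did not overlap at either age, although wild type reached 1566 at 26 d.

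The 8 libraries of this line also exceeded every library of every other line at their age. The highest other library had 1127 at 14 d (anac102 B1), 1205 at 18 d (anac090 C2), 1797 at 22 d (anac029 A1) and 1660 at 26 d (anac092 B2). Of the 2256 pairs of a line and a gene other than its own target, this was the only one with such a separation at all 4 ages (0.0443%). The library closest to it, anac029 A1 at 22 d, had a total of 67529 counts and was also the highest of the other libraries in ANAC017 at that age, with 9941, where its fellow A2 had 1318 of ANAC082 and 5331 of ANAC017.

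In the edgeR fit, adjusted over those 2256 pairs at each age, ANAC082 in the line labelled anac017 rose by 0.96 at 14 d (SE 0.15, adjusted p = 5.5e-07) and by 1.16 at 18 d (SE 0.17, adjusted p = 6.7e-08). It rose by 0.80 at 22 d (SE 0.17, adjusted p = 0.0034) and by 0.72 at 26 d (SE 0.17, adjusted p = 0.011). Leaving out number 1 of every line at once, which left 1 sample of this line per age, gave 0.72, 1.33, 0.84 and 0.67. Leaving out number 2 in the same way gave 1.16, 0.94, 0.72 and 0.74. No fit left out a sample of this line alone. At 26 d the call ended without wild type A2 (0.69) or with TMM (0.48, adjusted p = 0.123). With the spike-ins it was not called at any single age, at values from 0.58 to 1.08.

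The mean over the 4 ages did not turn on 1 replicate or scaling. It was 0.91 (SE 0.08, 95% interval 0.75 to 1.07, adjusted p = 2.8e-20), ran from 0.74 to 1.04 over 27 alternatives and was called in all of them. Against letter A wild type alone the log2 difference was 0.87, and permuting labels within age (exact, two-sided, 3240 arrangements, n = 8 and 10) gave p = 0.000309, the smallest it can give. The effect at 26 d was smaller than at 14 d by 0.24, which did not pass the test (SE 0.23, adjusted p = 0.998).

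**Figure D2:**
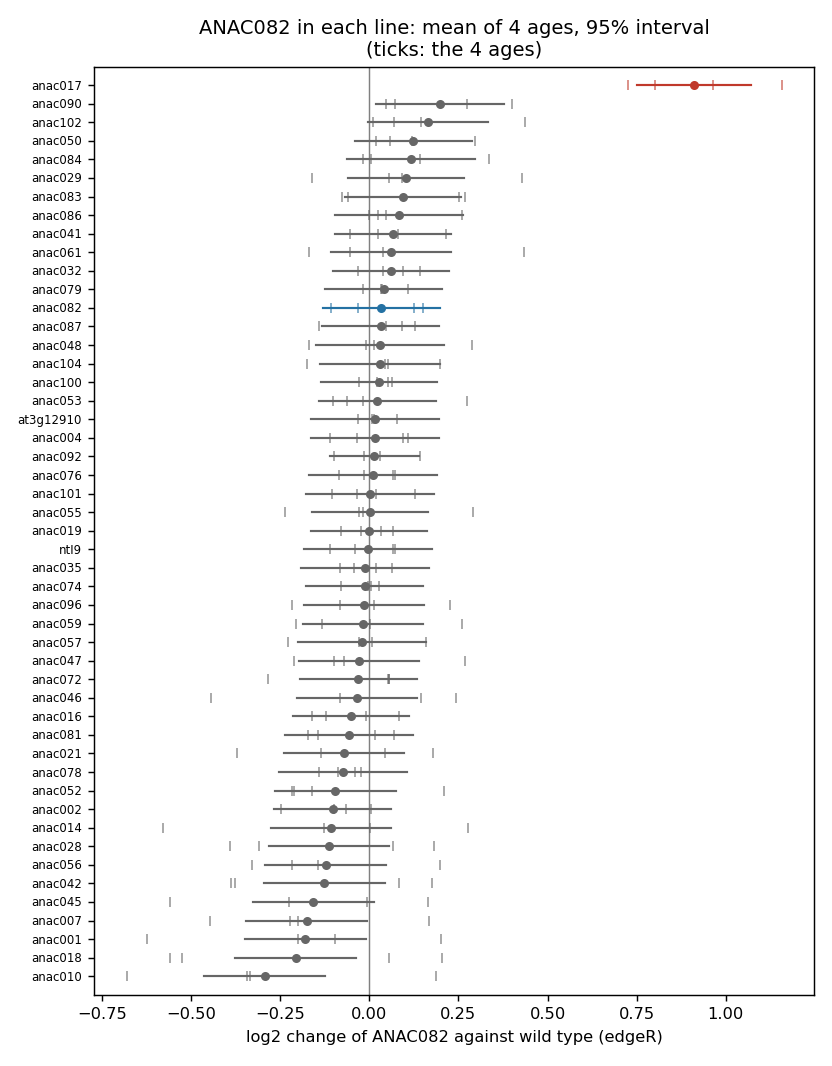
Log2 change of ANAC082 against wild type, with the letter as covariate (x axis), in each of the 49 lines (y axis). Points are the mean of 4 ages with its 95% interval, and small ticks are the 4 ages. The line labelled anac017 (red) stands at 0.91 with an interval from 0.75 to 1.07, the next line, anac090, at 0.20, and the lowest, labelled anac010, at -0.29.

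The ANAC017 transcript itself was higher in the libraries labelled anac017. Samples A1 and A2 had 11022 and 9426 normalised counts of ANAC017 at 14 d and 10436 and 9344 at 18 d. The later samples had 10037 and 12484 (22 d) and 8802 and 15759 (26 d). The means of letter A wild type were 3198, 3608, 5348 and 5121. All 8 exceeded every other library of their age, of which the highest had 5141, 5526, 9941 and 6637.

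ANAC017 rose by 1.67, 1.45, 1.13 and 1.25 on the log2 scale at the 4 ages and by 1.38 in the mean (SE 0.10, adjusted p = 2.2e-32 over the 47 tests of own targets in the mean). ANAC082 counts can be read as a percentage of ANAC017 counts only to compare samples, since probes differ in efficiency. That percentage in the line ran from 14.6 to 16.8 at 14 d, from 16.6 to 22.9 at 18 d, from 16.7 to 19.4 at 22 d and from 12.6 to 26.0 at 26 d. In letter A wild type it ran from 25.8 to 26.7, from 22.3 to 27.6, from 21.2 to 24.5 and from 24.0 to 27.8. The groups did not overlap at 14 and 22 d and overlapped at 18 and 26 d.

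**Figure D3:**
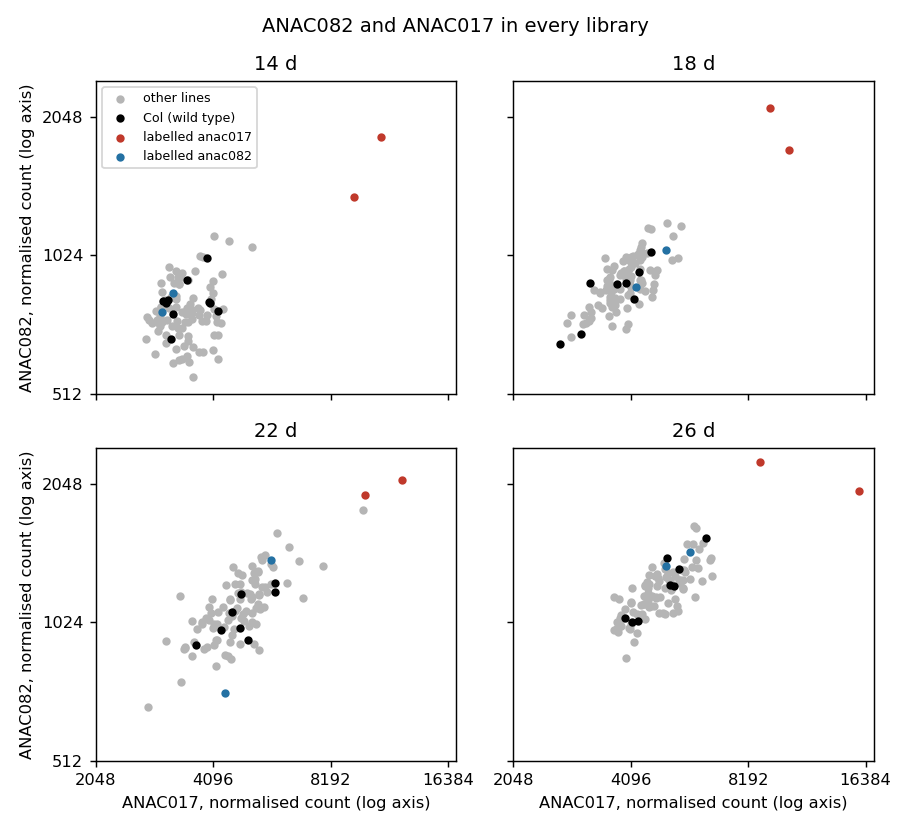
ANAC082 (y axis) against ANAC017 (x axis), both as normalised counts on log axes, in every library, 1 panel per leaf age; colours as in the plot by age (red labelled anac017, blue labelled anac082, black wild type, grey other lines). The red points lie at the upper right in each panel, with ANAC017 from 8802 to 15759 and ANAC082 from 1373 to 2286.

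Among the other genes of this line, few moved. Over the mean of 4 ages 3 of 46 genes were called, all higher (6.52%), at unadjusted p-values below 0.05 for 9 higher and 2 lower. ANAC084 rose by 1.03 (SE 0.29, adjusted p = 0.042), ANAC082 by 0.91, and ANAC100, a close relative of the senescence regulator ANAC092, by 0.91 (SE 0.17, adjusted p = 6.7e-05). With TMM ANAC082 and ANAC100 were called, and with DESeq2, on its own or on reference size factors, ANAC016 as well as the 3. The lowest were ANAC028 at -0.54 (SE 0.25), AT3G12910 at -0.53 (SE 0.45) and ANAC035 at -0.35 (SE 0.16), none of them called. ANAC028 was read near the floor for testing, with a median of 12.7 normalised counts over all libraries.

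ANAC082 ranked first by p-value and second by size among the 46 genes in the mean. At single ages it ranked 2nd, 6th, 1st and 8th by size, and by p-value first at 14, 18 and 22 d and 3rd at 26 d. Beside the targeted gene it was the only one called at 14, 18 and 22 d (2.17% at each). At 26 d ANAC010, a xylem NAC, rose by 2.63 (adjusted p = 0.0035) and ANAC100 by 1.48 (adjusted p = 0.011) beside it. The ANAC010 value rests on 1 sample with 64.9 normalised counts, where the other had 6.45 and letter A wild type 5.53 to 7.21.

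The median over the 46 genes of this line was 0.02, 0.37, -0.13 and 0.21 at the 4 ages and 0.10 in the mean. ANAC082 stood above it by 0.95, 0.79, 0.94 and 0.51, and by 0.81 in the mean. With TMM the median of the mean moved to -0.06, and ANAC082 stood above it by 0.80, since a scale shifts all genes alike. Over 30 settings, other scalings among them, the distance ran from 0.73 to 0.85.

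**Figure D4:**
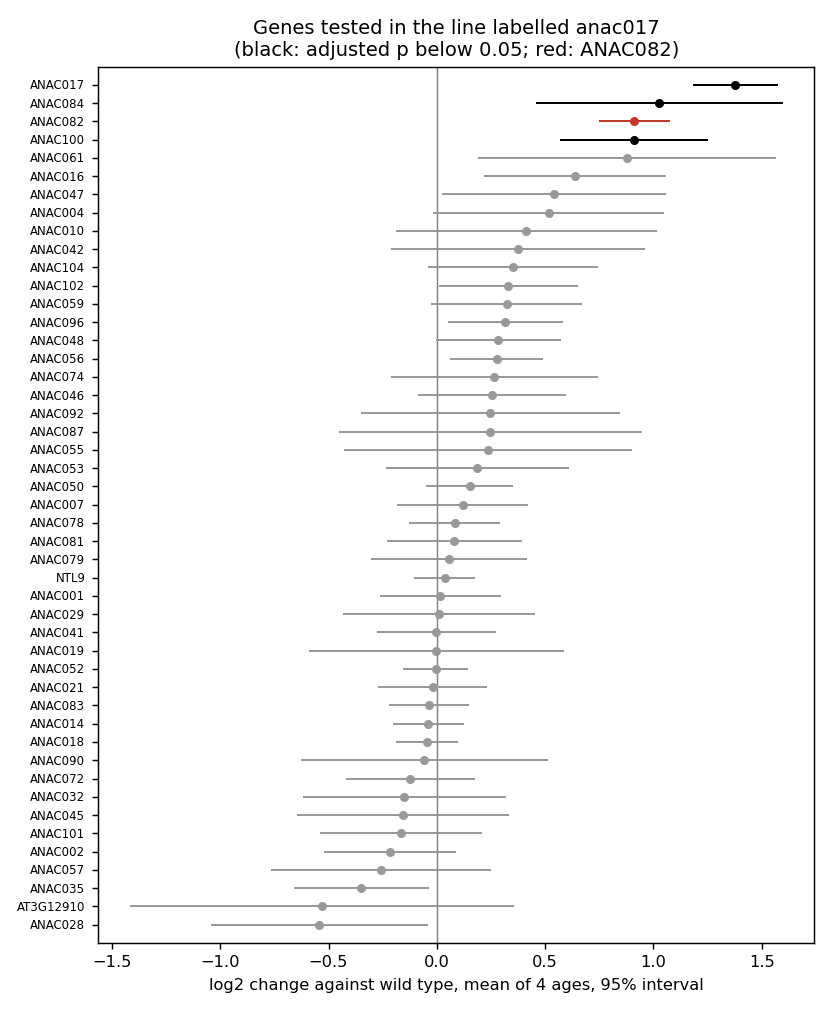
Log2 change against wild type in the line labelled anac017, mean of 4 ages with 95% interval (x axis), for the 47 genes tested (y axis, ANAC017 included). ANAC082 (red) at 0.91 has one of the narrowest intervals; ANAC017 at 1.38, ANAC084 at 1.03 and ANAC100 at 0.91 are the other genes called (black).

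Vascular markers and reference genes moved with this line at some ages. The summed level of the 5 xylem genes was 366 and 480 in the line at 18 d against 223 to 259 in letter A wild type, with no overlap. At 14, 22 and 26 d the ranges overlapped (276 and 373 against 303 to 322, 430 and 544 against 418 to 933, and 669 and 1110 against 565 to 673). ANAC104, which restrains xylem differentiation, made up most of these sums (299 to 387 in the line at 18 d, against 147 to 179), and each of ANAC007, ANAC010, ANAC076 and ANAC101 was detected at no more than 65.5. The 2 phloem genes overlapped between line and wild type in their sums at 14, 18, 22 and 26 d, reaching at most 90.0. TUB2 made up less of the reference counts in the line than in letter A wild type at all 4 ages. At 26 d its share was 1.37% and 2.14% against 2.55% to 2.86%. ACT7 also made up less at 22 d (7.79% in both samples against 9.16% to 9.60%) and 26 d (6.23% and 8.35% against 8.61% to 9.03%). UBQ10 made up more at 26 d (81.2% and 86.3% against 80.6% to 80.7%). The shares of ACT7 and UBQ10 at the other ages, and of ACT2 at all ages, overlapped. The part of the vascular genes in the ANAC082 difference was not tested. With the references without UBQ10, with UBQ10 alone and with TMM the ANAC082 mean over 4 ages was 1.02, 0.89 and 0.75.

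ANAC082 in the line labelled anac082 resembled wild type. Samples A1 and A2 had 848 and 771 normalised counts at 14 d and 875 and 1054 at 18 d. The later samples had 720 and 1402 (22 d) and 1358 and 1457 (26 d). They overlapped with letter A wild type at each age, and the low sample of 22 d was the shallowest reading of ANAC082 in the series, with 87 raw counts. The log2 differences were -0.03, 0.15, -0.11 and 0.12, and the mean was 0.03 (SE 0.08, 95% interval -0.13 to 0.20, adjusted p = 0.730). The mean was -0.07 with TMM and ran from -0.19 to 0.17 over 27 alternatives, again short of the threshold in each.

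The rest of the trio was not called in these lines. ANAC017 in the line labelled anac082 was 0.09 above wild type in the mean (SE 0.10, adjusted p = 0.969). ANAC090, which represses salicylic acid responses and delays senescence, was -0.06 in the line labelled anac017 (SE 0.29) and 0.34 in the line labelled anac082 (SE 0.29). In anac090, whose own transcript was at 27.6% of wild type in the mean, ANAC082 was 0.20 above wild type (SE 0.09, adjusted p = 0.616) and ANAC017 0.28 (SE 0.11, adjusted p = 0.416). The ANAC082 value depended on the references: it was 0.42 (adjusted p = 0.011) with their geometric mean and 0.45 (adjusted p = 0.0064) without UBQ10, called in both. The ANAC082 samples of anac090 were at 1069 and 827 at 14 d, against 673 and 763 in letter C wild type, and at 1129 and 1205 at 18 d, against 888 and 1044. Both pairs lay above their wild type, while those of 22 and 26 d overlapped with it.

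Outside the line labelled anac017, ANAC082 was not called in the mean of any line with the main scaling. Over the mean of 4 ages, 1 of 48 lines was called (the line labelled anac017), where 1.15% of the 2256 pairs of line and gene were called. At an unadjusted p below 0.05 there were 6 lines, 2 higher and 4 lower, against 7.54% of pairs. The other 47 lines had an SD of 0.10 on the log2 scale, with 22 above 0. After anac017 the highest were anac090 at 0.20, anac102 at 0.16 (SE 0.09, adjusted p = 0.664) and anac050 at 0.12 (SE 0.08, adjusted p = 0.885). With this scaling none of these neighbours in the order differed from wild type beyond the threshold, and their intervals overlapped; anac090 was called with the 2 other reference scalings given above. The lowest were the line labelled anac010 at -0.29 (SE 0.09, adjusted p = 0.064; called under 4 alternatives, at -0.32 to -0.28), anac018 at -0.21 (SE 0.09, adjusted p = 0.490) and anac001 at -0.18 (SE 0.09, adjusted p = 0.645).

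At single ages, 3 of 48 lines were called at 14 d and 1 of 48 at 18, 22 and 26 d, against 1.42%, 0.222%, 0.133% and 0.355% of all pairs. At an unadjusted p below 0.05 there were 12, 3, 2 and 4 lines, against 6.91%, 4.65%, 3.81% and 5.63% of pairs. The line called at every age was the one labelled anac017.

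The 2 other calls at 14 d were decreases in lines of letter B, where 1.02% of all pairs were called lower and 0.399% higher. In anac001, where ANAC001 was at 8.41% of wild type in the mean, ANAC082 was at 601 and 609 against 1010 and 812 in letter B wild type, a fall by 0.62 (SE 0.17, adjusted p = 0.032). In the line labelled anac010, where ANAC010 was at 38.8% of wild type at 14 d (adjusted p = 0.037), at 293% at 26 d (adjusted p = 0.018) and at 90.6% in the mean, ANAC082 was at 557 and 606, a fall by 0.68 (SE 0.17, adjusted p = 0.015). The ANAC010 percentages come from a gene near the floor for testing, with a median of 12.3 normalised counts over all libraries. In ANAC082 both lines lay under all 10 wild-type samples of 14 d. Without wild type B1 the values were -0.55 and -0.61 and neither was called, and with TMM they were -0.08 and -0.17.

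These decreases moved with the letter. Of 18 lines of letter B, 16 were below 0 at 14 d with a median of -0.38, and all 10 lines that were lower at an unadjusted p below 0.05 were of letter B. At 18 d the same 18 lines were all above 0 (median 0.20), and at 26 d 15 of 18 were below it (median -0.21). Lines of letters A, C and D had medians from -0.04 to 0.00 at 14 d. Wild type of letter B has 2 samples at each age, and leaving out B1 of 14 d left 1 line called at that age, while leaving out B2 gave 6.

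Outside their own lines, ANAC082 and ANAC017 were correlated between libraries at 18, 22 and 26 d, and at 14 d only where both had the same scale. Without the libraries labelled anac017 and anac082, and as deviations from the mean of letter and age, log2 ANAC082 correlated with log2 ANAC017 at r = 0.47 at 14 d (rho = 0.41, n = 106), 0.66 at 18 d (rho = 0.63, n = 104), 0.65 at 22 d (rho = 0.57, n = 104) and 0.77 at 26 d (rho = 0.77, n = 104). Each r had an adjusted permutation p of 1e-05 over the 4 ages, the smallest that 100000 resamples can give; the largest adjusted p for rho was 3e-05. Without the 2 libraries farthest from the median of ANAC017, r was 0.36, 0.62, 0.58 and 0.77. Without the doubtful 18 d libraries it was 0.66 at that age (n = 102).

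Both values share a denominator, the reference mean, and this bore on the result at 14 d. With ANAC082 and ANAC017 divided by different reference genes, r was -0.12 at 14 d (permutation p = 0.284) and 0.43, 0.51 and 0.54 at the later ages, each with an adjusted p of at most 5.3e-05. With TMM it was 0.37, 0.36, 0.39 and 0.58. At 14 d the relation was thus found only where both transcripts had the same scale.

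Within letters, the correlation ran from 0.21 (letter B at 14 d, n = 40) to 0.93 (letter D at 18 d, n = 12) and was above 0 in all 16 combinations of letter and age. With separate references, letter B at 14 d stood at -0.48, letter D at 14 d at -0.08, and the other 14 were above 0. These are descriptions, without a test.

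Wild type alone gave r = 0.32 at 14 d (rho = -0.03, n = 10, permutation p = 0.383) and 0.86, 0.76 and 0.93 at 18, 22 and 26 d (rho = 0.79, 0.71 and 0.76, n = 8 each, exact permutation). The adjusted p-values of r over the 4 ages were 0.383, 0.020, 0.038 and 0.020, and those of rho were 0.947, 0.074, 0.077 and 0.074. Without the 2 samples farthest in ANAC017, r at 18 d dropped to 0.48, at 22 d to 0.58 and at 26 d to 0.88, so the relation at 18 and 22 d rests in part on those samples. With separate references r was 0.17, 0.47, 0.62 and 0.62. At 26 d B2 was the highest sample in both transcripts, and B1, C1 and D1 were the 3 lowest in both.

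With the shared references, the slope of log2 ANAC082 on log2 ANAC017 over the libraries without both lines was 0.63, 0.60, 0.52 and 0.63 at the 4 ages. The slopes were not compared by a test, and that of 14 d belongs to the relation found only with the same scale. The SD of ANAC082 around the mean of letter and age was 0.19, 0.16, 0.20 and 0.18, and that of the log2 ratio of both transcripts, in the same deviations, 0.18, 0.14, 0.19 and 0.14. The SD of ANAC017 in these deviations was 0.15, 0.18, 0.25 and 0.22, at 14 d below that of the ratio. The ratio had a slightly smaller SD than ANAC082 at each age, a difference that was not tested. The shared references cancel in the ratio and not in ANAC082, so this comparison cannot show a relation between both transcripts.

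Among all 46 other genes, ANAC017 had the pattern most like that of ANAC082 with the references and with the line labelled anac017 kept. Over 426 libraries without the line labelled anac082, as deviations from letter and age, Pearson r was 0.75 for ANAC017, 0.64 for ANAC016, 0.52 for ANAC061, 0.48 for ANAC042 and 0.46 for ANAC004. ANAC016 is a membrane-tethered promoter of senescence that lies beside ANAC017 on its chromosome, and ANAC042 (JUB1) delays senescence. The lowest were ANAC028 at -0.12, ANAC057 at -0.11 and ANAC045, a phloem NAC, at -0.03. Their median normalised counts were 12.7, 10.7 and 12.3, near the floor for testing, so their low r carries little weight. These correlations have no test, and the libraries share their scale, wild-type groups and lines.

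The order at the top changed with the libraries and with the scale. Without the 8 libraries labelled anac017, ANAC016 led at 0.65 and ANAC017 followed at 0.64 (n = 418). With TMM and without that line ANAC017 led again at 0.42, followed by ANAC052 at 0.28 and ANAC016 at 0.23. The median over the 46 genes fell from 0.20 (39 positive) to 0.04 (27 positive) with TMM. By age, with the references and without both lines, ANAC017 ranked 6th, 2nd, 1st and 1st and ANAC016 1st, 1st, 3rd and 2nd.

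**Figure D5:**
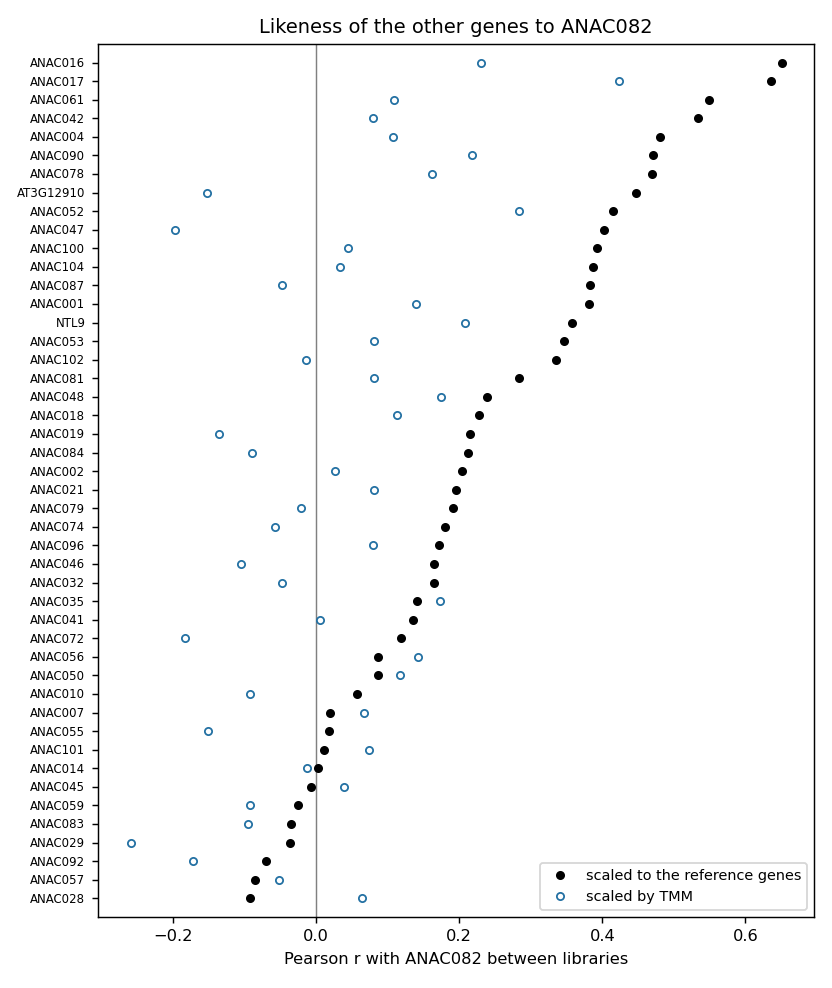
Pearson r between log2 ANAC082 and each of the 46 other genes (y axis) over 418 libraries without the lines labelled anac082 and anac017, as deviations from the mean of letter and age (x axis). Filled points are scaled to the reference genes and open points by TMM; ANAC016 (0.65) and ANAC017 (0.64) lead with the references, and ANAC017 (0.42) with TMM.

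In wild type the membrane-tethered genes had a lower median change with age than the 2 lists of senescence genes. This held with either scaling, which shifts all genes alike. From 14 to 26 d, with the references, all 3 genes of the trio were called higher with a median of 0.60. With TMM ANAC017 and ANAC082 were called lower, ANAC090 lay above 0 without a call, and the median was -0.22. Both medians of the trio are the value of ANAC082 itself. The study chose that list with these samples in hand. All 6 membrane-tethered genes (such as ANAC016, ANAC017 and NTL9) were called higher with the references, with a median of 0.50, and with TMM 2 were called higher and 4 lower (median -0.33).

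The 12 genes known to promote senescence, ANAC092, ANAC029 and ANAC046 among them, were all called higher with the references (median 1.76), and 10 of 12 with TMM (median 0.999), where NTL9 was called lower. ANAC016, ANAC053 and NTL9 belong to this list and to the membrane-tethered one. The 2 genes listed as delaying senescence, ANAC042 and ANAC083, were called higher with the references (median 1.45), and with TMM ANAC083 lay below 0. ANAC090, which also delays it, was counted in the trio and not in this list. Over all 47 genes the median was 1.12 with the references and 0.30 with TMM. Of 4 tested xylem genes 3 were called lower with both scalings (ANAC007, ANAC010 and ANAC101), as was the tested phloem gene ANAC045 (-2.92), against 14.9% of all genes with the references. ANAC010, ANAC101 and ANAC045 were read low, with medians of 12.3, 17.5 and 12.3 normalised counts over all libraries. The fourth xylem gene, ANAC104, was called higher with the references and lay above 0, without a call, with TMM.

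In the line labelled anac017, these groups stayed near the median of its genes, which was 0.10 in the mean of 4 ages. The median was 0.08 for the 5 other membrane-tethered genes, 0.11 for the 12 senescence-promoting genes, 0.17 for both delaying genes and 0.24 for the 4 xylem genes, against 0.91 for ANAC082. In the edgeR fit ANAC082 was the only member of the 6 lists called in that mean beside the targeted gene. At 26 d alone ANAC010, of the xylem list, was called as well, on the 1 high sample given above. ANAC016, of the membrane-tethered and the senescence-promoting list, was at 0.64 (SE 0.21, adjusted p = 0.170) in that fit and was called higher by DESeq2 with either kind of size factor.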

How the data were processed

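NanoString nCounter counts of 67 probes in 434 leaf samples were used as deposited by the authors: raw counts per probe, 49 NAC genes, 4 references, 8 negative and 6 positive controls. Per the labels' protocols, total RNA was hybridised to a custom probe set; the sources used here name no software or genome build. The 53 gene probes were matched by locus to RefSeq names (TAIR10.1). A second table deposited by the authors holds log2 values; for ANAC082 these, turned back from log2, were 0.983 to 0.999 times the normalised counts computed here. That table served as an alternative, tested with limma 3.58.1. Raw totals are given in the report; intervals cover counting error and spread between these samples.

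All 434 samples entered 1 edgeR quasi-likelihood fit (version 4.0.16, under R 4.3.3) with group means for genotype by age, the letter within age as covariate and the log arithmetic mean of the references as offset. UBQ10 made up 80.6% of reference counts (median). Genes were tested if their mean raw count exceeded 12.6, the negative mean plus 2 SD, leaving 47; ANAC076 and ANAC086 were not tested. Dispersions came from all samples (common dispersion 0.0892), and each contrast was computed on wild type, anac092 and the line. The SE is the log2 change over the square root of F. Benjamini-Hochberg adjustment ran over the 47 genes, over 2256 pairs of line and gene (per age and for the mean), over 188 own-target tests at single ages or over 47 in the mean, with a threshold of 0.05. Correlations used log2 of the normalised count plus 1. DESeq2 1.42.0, an alternative, was fitted per line to wild type, anac092 and the line. The fits were tested on simulated data. Among 345 pairs of samples of a group, 0 were identical. Of the sample columns, 0 were left unused.

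Named lines and genes follow a rule: lines called, the 3 highest and lowest lines, the 3 largest changes each way in the line labelled anac017, and the 5 most and 3 least alike genes. Members and lists were chosen with earlier results of these data known. Alternatives were other scalings, filters, tests, covariates, libraries left out, and a replicate block.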

Additional observations from a re-analysis of the deposited data

How the results depend on the processing

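The change of ANAC082 with age in wild type depended on the scale. With TMM, DESeq2 on its own size factors and spike-ins the 18 d value was -0.080, -0.10 and -0.78, the 22 d value -0.19, -0.25 and -0.29, and the 26 d value -0.22, -0.33 and 0.10 (0.10 not called). In the line labelled anac017 the mean of 4 ages was called under all 27 alternatives. At single ages the call was lost with spike-ins (1.05, 1.01, 1.08 and 0.58) and with each age fitted on its own (0.80 at 22 d, 0.72 at 26 d). At 26 d it was also lost with TMM (0.48), UBQ10 alone (0.66) and DESeq2 on its own size factors (0.47). DESeq2 on reference size factors kept it there (0.72). Leaving out 1 replicate (for the lines, the same number in every line at once) gave 0.72 to 1.16 at 14 d and 0.94 to 1.33 at 18 d. At 22 d it gave 0.72 to 0.87 and at 26 d 0.67 to 0.81. The difference between its 26 and 14 d effects, never called, turned positive with the geometric mean of the references (0.069) and without UBQ10 (0.12). The mean in the line labelled anac082, never called, was -0.068, -0.081 and -0.090 with TMM, DESeq2 and spike-ins, and -0.19 to 0.17 with 1 replicate left out (of the lines, the same number at every age). The cause of these shifts was not tested; the TMM scale, by its construction, follows the NAC genes themselves.

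Of 48 lines, the number called at 14 d (3) was 1 with TMM, the geometric mean, without UBQ10, with DESeq2 on its own size factors and without the letter, 5 with UBQ10 alone, 0 with spike-ins, and 6 with each age on its own or without the 13 shallow libraries. It was 0 at 18 d with spike-ins, and at 22 d 0 with spike-ins and ages fitted alone and 2 without the letter. At 26 d it was 0 with TMM, UBQ10 alone, DESeq2 on its own size factors, spike-ins and ages fitted alone. For the mean it was 2 with the geometric mean and without UBQ10 (anac090 added, at 0.42 and 0.45) and without the letter or shallow libraries (anac010 added). With 1 wild-type sample left out (letter A, or B at 14 d) it ran from 1 to 6 at 14 d and from 0 to 1 at 26 d. It stayed at 1 at 18 and 22 d, and ran from 1 to 2 for the mean. The correlation with ANAC017 turned only at 14 d with separate references (-0.12).

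Same-numbered samples of a line and wild type deviated together in part, with a median r of 0.17, 0.18, 0.44 and 0.30 by age. It was over 0.1 in 29, 34, 42 and 31 of 50 genotypes and below -0.1 in 6, 8, 4 and 7. The main fit did not take the numbers as pairs, so an effect shared by samples of 1 number stays in its spread. With the number as a replicate block, 6 lines were called at 14 d and 2 in the mean (anac010 added), and ANAC082 in the line labelled anac017 was 0.99, 1.16, 0.80, 0.72 and 0.92 in the mean. The block changed no other call. Spike-in scaling, the wild-type B samples of 14 d and the doubtful 18 d libraries were alternatives chosen after seeing the data. The 2 samples per line and age limit the precision of single ages.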
